A study of Homo sapiens with 4 samples.

Results

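Solute carrier genes encode the membrane proteins that move sugars, amino acids, ions, metals, nucleotides and vitamins into and out of cells and organelles. The set described here holds the protein-coding genes of the count table whose names carry an SLC family number, the letter A and a member number, and whose level, averaged over the 4 libraries, reached 5 CPM (the count scaled by the library total). Of 343 genes with such a name, 186 lay below that limit, and SLC7A11, SLC7A5, SLC3A2 and SLC2A1 were set apart by the rule, which left 153 members among the 60544 genes of the table. The members were thus chosen by name and by their measured level over all libraries. The difference between the groups did not enter this rule, but earlier results of these data were known when the set was chosen. The pattern leaves out SLC genes with another letter, such as SLC35B1, and it takes in 5 genes that only carry a carrier's name. These are SLC9A3R1 and SLC9A3R2, which encode scaffold proteins of sodium/proton exchangers, and SLC2A4RG, SLC4A1AP and SLC7A6OS.

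The libraries are poly(A) RNA from PC3, an established human prostate cancer line that was grown in medium with serum. Both libraries of the control group carried the short hairpin RNA labelled shNC, and both of the other group carried the one labelled sh812. The series design names a knockdown of METTL3, the enzyme that writes N6-methyladenosine on messenger RNA, against a control, and the libraries labelled sh812 are taken as the knockdown, shNC being the control name. A single hairpin stands for the knockdown, and no label says that the replicates were separate cultures, so p-values measure only the spread between these libraries.

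Total counts ran from 31450648 to 37041330 per library, and all 153 members passed the low-count filter. METTL3 had 44.3 and 43.6 CPM in the shNC libraries and 7.66 and 8.75 CPM in the sh812 libraries (log2 difference, the fitted fold change of sh812 over shNC, -2.42, SE 0.11, edgeR adjusted p 5.54e-14). The epithelial genes KRT8, KRT18, KRT19 and EPCAM were expressed in all libraries, at 69.3 to 450 CPM, while the prostate secretory genes KLK3 and KLK2 were at 0. Of the epithelial and luminal markers, KRT18 (0.30), EPCAM (0.45) and CDH1 (0.57) were called higher and TMPRSS2 (-0.74) lower. The 5 fibroblast markers summed to 45.3 to 47.6 CPM in shNC and 34.9 to 42.0 CPM in sh812, most of it COL1A1, which was not called. COL3A1, the only call of that list, was lower (log2 difference -1.51, edgeR adjusted p 0.00131), and LUM (0.30) and PDGFRB (0.69) lay above 0 and were not called. The 4 leukocyte markers summed to 1.08 to 1.27 CPM in shNC and 0.399 to 0.755 CPM in sh812. Of the 3 endothelial markers, VWF and CDH5 stayed under 1 CPM, and PECAM1 was higher in sh812 (log2 fold change 0.59, adjusted p = 0.000222 in edgeR). The part of these differences in the results below was not tested.

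Carriers work in concert with ion gradients. The sodium pump keeps sodium low inside the cell, and many carriers use that gradient to take up phosphate, amino acids or chloride. Cation-chloride cotransporters of the SLC12 family set cell volume and intracellular chloride, with sodium-driven uptake through SLC12A2 set against potassium-driven release through carriers such as SLC12A4 and SLC12A7. Mitochondrial carriers of the SLC25 family pass phosphate, nucleotides and metabolites through the inner mitochondrial membrane. In prostate tissue, carriers are known above all for zinc and citrate handling.

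In the results below, the 4 members of the SLC12 family described here fell, and the mitochondrial SLC25 family had 3 members that rose and 0 that fell. These families were singled out after their values were seen, and the sequence before the start of 6 of their called genes is shown because all calls described in a family had 1 direction. The windows hold 250 bases before the RefSeq start (GRCh38.p14), 5′ to 3′ on the gene's strand. Where RefSeq gave several starts, the one nearest to the 5′ end of the GENCODE 29 gene was taken, and it lay 0 to 95 bases from that end in the 6 genes shown. The window of SLC12A4, whose nearest RefSeq start lay 907 bases from that end, is not shown. Capitals mark matches on either strand to the GC box GGGCGG, the CCAAT box, the cAMP response element TGACGTCA, the E-box CACGTG and the palindromic NRF1 site. Adjoining matches run together.
The windows of the falling SLC12 genes are chr5:128083516-128083765 on the plus strand for SLC12A2, chr5:1112064-1112313 on the minus strand for SLC12A7 and chr7:100826619-100826868 on the plus strand for SLC12A9.
SLC12A2: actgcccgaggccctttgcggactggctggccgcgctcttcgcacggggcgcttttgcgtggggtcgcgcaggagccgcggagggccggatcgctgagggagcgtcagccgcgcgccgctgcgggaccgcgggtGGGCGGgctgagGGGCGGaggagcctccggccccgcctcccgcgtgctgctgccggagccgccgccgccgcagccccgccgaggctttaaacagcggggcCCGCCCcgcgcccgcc
SLC12A7: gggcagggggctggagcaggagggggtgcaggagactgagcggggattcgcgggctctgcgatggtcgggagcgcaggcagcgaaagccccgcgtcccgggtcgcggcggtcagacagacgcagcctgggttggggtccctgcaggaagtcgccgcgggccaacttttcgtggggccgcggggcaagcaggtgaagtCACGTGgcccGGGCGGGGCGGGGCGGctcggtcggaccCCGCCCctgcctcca
SLC12A9: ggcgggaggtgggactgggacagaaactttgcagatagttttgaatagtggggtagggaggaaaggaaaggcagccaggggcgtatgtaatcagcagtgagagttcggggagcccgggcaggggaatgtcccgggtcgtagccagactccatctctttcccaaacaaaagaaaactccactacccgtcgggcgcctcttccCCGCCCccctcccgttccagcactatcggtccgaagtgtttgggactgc
The windows of the rising SLC25 genes are chr12:98593436-98593685 on the plus strand for SLC25A3, chr7:96322099-96322348 on the minus strand for SLC25A13 and chr17:44324824-44325073 on the minus strand for SLC25A39.
SLC25A3: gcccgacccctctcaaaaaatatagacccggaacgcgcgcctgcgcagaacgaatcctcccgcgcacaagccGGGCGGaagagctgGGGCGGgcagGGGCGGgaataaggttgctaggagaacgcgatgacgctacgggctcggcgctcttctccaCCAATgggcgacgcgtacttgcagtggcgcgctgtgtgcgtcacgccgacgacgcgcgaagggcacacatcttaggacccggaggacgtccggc
SLC25A13: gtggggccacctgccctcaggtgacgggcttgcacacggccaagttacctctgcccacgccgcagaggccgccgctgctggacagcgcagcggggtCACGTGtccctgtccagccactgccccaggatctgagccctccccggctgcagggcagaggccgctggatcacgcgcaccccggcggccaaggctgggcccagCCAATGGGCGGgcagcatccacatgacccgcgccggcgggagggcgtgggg
SLC25A39: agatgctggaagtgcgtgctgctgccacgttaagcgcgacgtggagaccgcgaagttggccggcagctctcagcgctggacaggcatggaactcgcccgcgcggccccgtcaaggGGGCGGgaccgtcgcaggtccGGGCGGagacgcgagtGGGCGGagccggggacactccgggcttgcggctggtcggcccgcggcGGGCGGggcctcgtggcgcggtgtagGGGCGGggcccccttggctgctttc

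The G and C content of the 6 windows ran from 58.4% in SLC12A9 to 79.6% in SLC12A2. The median was 58.0% over 35116 windows of the RefSeq table and 66.4% over the windows of members. Each held at least 1 GC box, from 1 in SLC12A9 and SLC25A13 to 5 in SLC25A39, and 42.6% of all windows held one. A CCAAT box stood in the SLC25A3 and SLC25A13 windows (11240 of all windows held one). An E-box stood in SLC12A7 and SLC25A13 (6.34% of all windows). No window of the 6 held an exact match to the cAMP response element (1.65% of all windows) or the NRF1 site (1.03%). Variants of these sites were not searched. The falling and the rising genes thus shared the GC box, and these letters did not separate them. Among the 188 windows that RefSeq gives for 126 of the 153 members, 124 held a GC box. These matches describe the sequence and are not evidence of binding.

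Per length, mitochondrial carriers were the most abundant members. Levels between genes are compared here as CPM per kilobase of the principal transcript, averaged over the 4 libraries. SLC25A3, the phosphate carrier of the inner mitochondrial membrane, was first at 392 CPM per kilobase. SLC25A39, a mitochondrial glutathione carrier, followed at 301, and the ADP/ATP carriers SLC25A5 and SLC25A6 were at 267 and 166. The creatine carrier SLC6A8 (162), the phosphate carrier SLC20A1 (159) and the glutamine carrier SLC38A2 (157) came next, and their order lay within the spread of the libraries. The zinc carrier SLC39A7 (106) and the lactate exporter SLC16A3 (105) completed the top of the list together with the scaffold gene SLC9A3R2 (105). The bottom of the order was held by the folate carrier SLC46A1 at 1.02 CPM per kilobase. The 8 members with the highest mean CPM took 36% of the members' counts, and all 153 together took 1.20% to 1.25% of the counts of a library. Reads of the ADP/ATP carriers and of SLC6A8 are uncertain because near-identical pseudogene copies exist.

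**Figure D1:**
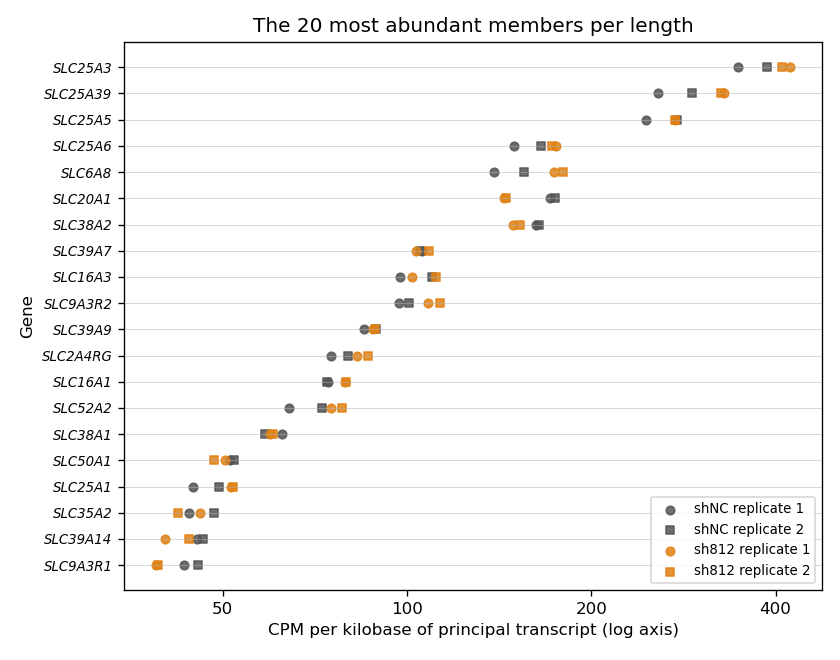
Level of the 20 most abundant members per length, as CPM per kilobase of principal transcript on a log axis. Each gene has 4 points, grey for the 2 shNC and orange for the 2 sh812 libraries, and SLC25A3 lies highest with a mean of 392.

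In the comparison of sh812 with shNC, 27 members passed the threshold of 0.05 on Benjamini-Hochberg adjusted p-values over 16802 genes (quasi-likelihood test of edgeR). The members called higher numbered 10 (6.54%) and those called lower 17 (11.1%). The background was 10.8% called among all genes tested, 5.43% higher and 5.42% lower, and 15.5% among protein-coding genes at the same level limit, 7.79% higher and 7.68% lower. The members' share of 17.6% was thus near that of protein-coding genes of like level. With library size alone as the scaling, 7 members were called higher and 28 lower. Over all genes tested, the calls moved under that scaling from 912 higher and 910 lower to 561 and 1328. No called member had overlapping groups. Groups did not overlap in 97 of the 153 members (63.4%), against 60.2% of protein-coding genes of like level and 53.6% of all genes tested. The sh812 libraries were the higher ones in 39 members (25.5%) and the lower ones in 58 (37.9%). The background for higher was 26.2% of all genes and 30.6% of protein-coding genes of like level, and for lower it was 27.4% and 29.7%. Most of the 27 calls stood with either shNC replicate left out, and most were lost with either sh812 replicate left out. Calls over all genes also fell with either sh812 replicate left out, and they rose without shNC replicate 2.

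Changes were small. The log2 fold changes of the members ran from -0.73 in SLC16A9 to 0.51 in SLC39A4, and none reached 1. Their median was -0.035, against -0.0056 over all genes tested, with 88 members below 0 and 65 above. The median was -0.0799 with library size alone, where that of all genes tested was -0.0503, and -0.0084 without shNC replicate 2. RNA from a whole culture does not tell less RNA per cell from fewer cells of a kind.

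**Figure D2:**
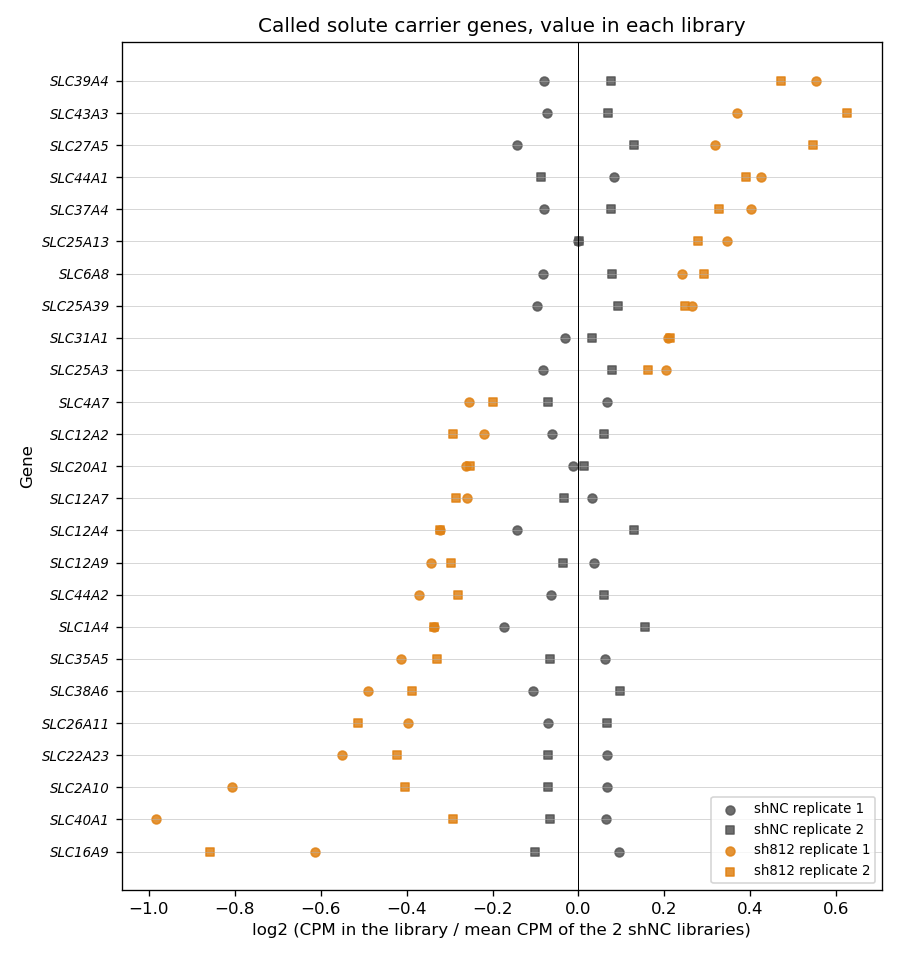
Level of 25 called members in each library, as the log2 ratio to the mean of the 2 shNC libraries. Grey points are shNC and orange points sh812, circles replicate 1 and squares replicate 2, and in each gene both orange points lie on the same side of both grey points.

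All 8 calls among inorganic ion and pH carriers were decreases. Of 20 members in these families, 19 had a log2 fold change below 0, 8 were called lower and 0 higher, with a median of -0.22. The 8 calls are 40% of the group, against 7.68% called lower among protein-coding genes of like level. Of the groups formed by SLC family number, this one had the lowest median, and it was singled out after its values were seen. Its median transcript length was 4620.5 bases, against 3323.5 bases in those protein-coding genes. This group holds the SLC4, SLC9, SLC12, SLC20 and SLC26 families, which carry bicarbonate, protons, chloride, potassium, phosphate and sulfate, and its only member above 0, at 0.0033, was SLC4A1AP, which is no carrier.

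The SLC12 genes SLC12A2, SLC12A4, SLC12A7 and SLC12A9 gave 4 of these 8 calls. SLC12A2 (NKCC1), the cotransporter that loads cells with sodium, potassium and chloride, had 64.5 and 70.2 CPM in shNC and 57.9 and 55.0 CPM in sh812. SLC12A4 (KCC1), a potassium-chloride exporter of most cells, had 41.3 and 49.9 CPM in shNC and 36.5 and 36.5 CPM in sh812. In both genes the groups do not overlap, but the shNC libraries stand further apart than the sh812 libraries. SLC12A7 (KCC4) had 51.1 and 48.8 CPM in shNC and 41.7 and 40.99 CPM in sh812. SLC12A9, a family member first described as a partner of other cotransporters, had 39.3 and 37.3 CPM in shNC and 30.2 and 31.2 CPM in sh812. In these 2 genes both pairs of replicates lie close together and the groups are well apart.

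The log2 fold changes of the 4 genes ran from -0.32 in SLC12A9 and SLC12A4 through -0.27 in SLC12A7 to -0.26 in SLC12A2. Their adjusted p-values in edgeR were 0.0176 for SLC12A9, 0.0225 for SLC12A4, 0.026 for SLC12A7 and 0.0274 for SLC12A2. All 4 stayed below 0 in each of the 13 alternatives tried. With each library's trend on transcript length removed, SLC12A9 (-0.31, adjusted p = 0.0164) was still called in edgeR, and SLC12A2 (-0.17), SLC12A4 (-0.26) and SLC12A7 (-0.20) were not, with adjusted p-values of 0.144, 0.0622 and 0.0788. SLC12A4 lay at -0.17 without shNC replicate 2. DESeq2 likewise called SLC12A9 alone of the 4. Without shNC replicate 1 edgeR called 3 of the 4, without shNC replicate 2 it called 2, and with either sh812 replicate left out it called 0. The annotation places exons of EPHB4 on the other strand over SLC12A9, and exons of LCAT on the same strand over SLC12A4.

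These cotransporters are known to be regulated by the WNK kinases through the kinases encoded by STK39 and OXSR1. WNK1 was lower in sh812, with 146 and 128 CPM in shNC and 121 and 110 CPM in sh812 (log2 difference -0.25, SE 0.07, edgeR adjusted p 0.0247). Its principal transcript is 10452 bases long, and with the length trend removed its value was -0.15 (adjusted p = 0.128), while without shNC replicate 1 it was -0.14. STK39 and OXSR1, which were named after their values were seen, lay at 0.20 and 0.11 on the log2 scale, and neither was called (edgeR adjusted p 0.103 and 0.356).

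Calls among ion carriers also included SLC20A1, SLC26A11 and SLC4A7. SLC20A1 (PiT-1), a sodium-driven phosphate carrier and the most abundant gene of the group, had 580 and 590 CPM in shNC and 488 and 491 CPM in sh812 (log2 difference -0.26, SE 0.06, edgeR adjusted p 0.00359). Its replicates differed by far less than its groups. SLC26A11, a sulfate and anion carrier, had 21.1 and 23.2 CPM in shNC and 16.8 and 15.5 CPM in sh812 (log2 difference -0.45, SE 0.11, edgeR adjusted p 0.00819), and it shares exon sequence with SGSH on the other strand. SLC4A7 (NBCn1), which takes up bicarbonate with sodium, had 152 and 138 CPM in shNC and 122 and 126 CPM in sh812 (log2 difference -0.23, SE 0.06, edgeR adjusted p 0.0235). With the length trend removed SLC4A7 was at -0.14 and no longer called (adjusted p = 0.124). The other members of the group had values between -0.29 and 0.0033, and SLC26A6, an anion exchanger, came closest to a call (adjusted p = 0.0503 in edgeR). With the length trend removed the group's median was -0.18, with 19 of 20 still below 0 and 5 called, and DESeq2 called 5. Without sh812 replicate 1 there were 2 calls and without sh812 replicate 2 there were 0, with medians of -0.21 and -0.24. In those fits to 3 libraries the calls over all genes also fell, from 912 higher and 910 lower to 261 and 326, and to 278 and 404.

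**Figure D3:**
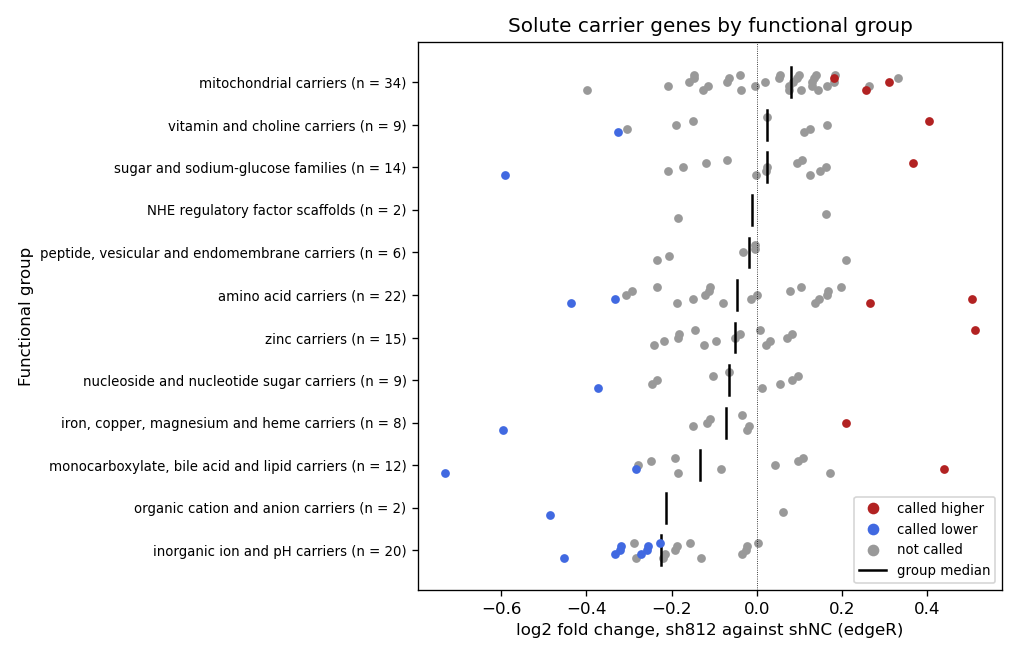
Log2 fold change of all 153 members, sh812 against shNC, by functional group. Each point is a gene, red where called higher, blue where called lower and grey where not called, and the black bar is the group's median, which is lowest for the inorganic ion and pH carriers (-0.22) and highest for the mitochondrial carriers (0.082).

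Among mitochondrial carriers the share of calls was near or under the background. Of 34 SLC25 members, 22 had a log2 fold change above 0 and 12 below, with a median of 0.082, and 3 were called higher and 0 lower. The 3 calls are 8.82% of the family, against 7.79% called higher and 15.5% called in all among protein-coding genes of like level. SLC25A13 (citrin), the aspartate/glutamate carrier of the malate-aspartate shuttle, had 59.8 and 60.0 CPM in shNC and 76.1 and 72.6 CPM in sh812 (log2 difference 0.31, SE 0.07, edgeR adjusted p 0.00542). SLC25A39, the mitochondrial glutathione carrier, had 413 and 470 CPM in shNC and 530 and 524 CPM in sh812 (log2 difference 0.26, SE 0.06, edgeR adjusted p 0.00824). SLC25A3, the phosphate carrier, had 582 and 651 CPM in shNC and 710 and 689 CPM in sh812 (log2 difference 0.18, SE 0.06, edgeR adjusted p 0.0497). In SLC25A39 and SLC25A3 shNC replicate 1 lies well below shNC replicate 2, whereas in SLC25A13 the control libraries are nearly equal. SLC25A3 lost its call with RLE size factors, with library size alone and with the length trend removed (0.12, adjusted p = 0.157 in edgeR). Without shNC replicate 1 SLC25A39 lay at 0.17 and SLC25A3 at 0.10. With library size alone, and with the length trend removed, 2 mitochondrial carriers were called higher and 2 lower. The count called higher rose without shNC replicate 2 and fell with any other library left out. Calls over all genes likewise rose without shNC replicate 2 and fell with either sh812 replicate left out. The family's median dropped to 0.011 when shNC replicate 1 was left out and was 0.11 when shNC replicate 2 was.

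The other 31 SLC25 members were not called. The ADP/ATP carriers SLC25A6, SLC25A5 and SLC25A4 lay at 0.14, 0.075 and 0.17 on the log2 scale, and none was called. SLC25A12, the paralog of citrin, had a value of 0.10 (adjusted p = 0.45 in edgeR). The highest value of the family, 0.33 in the dicarboxylate carrier SLC25A10, and the lowest, -0.40 in the uncoupling protein relative SLC25A14, both missed the threshold (adjusted p = 0.132 and 0.0554 in edgeR). These members were named after their values were seen, apart from SLC25A6.

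The choline carriers moved in opposite directions. SLC44A1 (CTL1), which brings choline into cells and mitochondria for phospholipid synthesis, had 68.1 and 60.5 CPM in shNC and 86.2 and 84.2 CPM in sh812 (log2 difference 0.41, SE 0.07, edgeR adjusted p 0.000603). SLC44A2 (CTL2), its relative, had 152 and 166 CPM in shNC and 123 and 131 CPM in sh812 (log2 difference -0.32, SE 0.06, edgeR adjusted p 0.00172). Per length SLC44A2 was the more abundant, at 38.9 against 7.11 CPM per kilobase over the 4 libraries. SLC44A1 has the longest principal transcript of the called members, at 10511 bases, and its value rose to 0.50 with the length trend removed. The pair kept both calls in each alternative that used all 4 libraries, and SLC44A2 lost its call without sh812 replicate 1 (adjusted p = 0.0953 in edgeR). The other 7 vitamin and choline carriers, among them the folate carriers SLC19A1 and SLC46A1 and the riboflavin carriers SLC52A2 and SLC52A3, were not called.

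Metal carriers held a few single changes. SLC39A4 (ZIP4), a zinc importer of the plasma membrane, had 39.4 and 43.9 CPM in shNC and 61.2 and 57.7 CPM in sh812. Its log2 difference, 0.51 with an SE of 0.08 and an edgeR adjusted p of 0.000128, was the highest of all members and was called in each alternative tried. It was the only call among the 15 zinc carriers, whose median was -0.052. SLC31A1 (CTR1), the copper importer, had 83.5 and 87.3 CPM in shNC and 98.7 and 99.0 CPM in sh812 (log2 difference 0.21, SE 0.07, edgeR adjusted p 0.0392). It lost its call with library size alone (0.17, adjusted p = 0.103 in edgeR) and in most fits that left out 1 library. Its value ran from 0.17 to 0.27 over the alternatives. SLC40A1 (ferroportin), the cell's iron exporter, had 8.65 and 7.91 CPM in shNC and 4.19 and 6.76 CPM in sh812 (log2 difference -0.60, SE 0.18, edgeR adjusted p 0.0371). Its sh812 libraries lie far apart, and leaving out sh812 replicate 1 gave -0.29, while leaving out sh812 replicate 2 gave -0.98. The first of these was no longer called (adjusted p = 0.547), nor was the value without shNC replicate 1 or that from DESeq2.

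Among the 22 members of the amino acid families, 2 were called higher and 2 lower, or 9.09% each way. The shares were near those of protein-coding genes of like level, 7.79% higher and 7.68% lower. SLC43A3, which stands in an amino acid family by name and is known as a nucleobase carrier, had 34.3 and 37.8 CPM in shNC and 46.6 and 55.6 CPM in sh812 (log2 difference 0.51, SE 0.09, edgeR adjusted p 0.000601). It was not called without sh812 replicate 2 (0.37, adjusted p = 0.0545). SLC6A8, the creatine carrier, had 522 and 584 CPM in shNC and 653 and 677 CPM in sh812 (log2 difference 0.27, SE 0.06, edgeR adjusted p 0.00517). Neither of the rising genes is known to carry an amino acid as its main substrate. SLC1A4 (ASCT1), a carrier of alanine, serine and cysteine, had 30.5 and 38.2 CPM in shNC and 27.2 and 27.2 CPM in sh812 (log2 difference -0.33, SE 0.10, edgeR adjusted p 0.0334), and it was not called with the length trend removed (adjusted p = 0.0784) or in DESeq2. Without shNC replicate 2 SLC1A4 lay at -0.16. SLC38A6, of the family of glutamine carriers, had 13.7 and 15.7 CPM in shNC and 10.5 and 11.2 CPM in sh812 (log2 difference -0.44, SE 0.13, edgeR adjusted p 0.0269). SLC38A6 was not called in DESeq2 (adjusted p = 0.105), nor without shNC replicate 2 (-0.33), sh812 replicate 1 (-0.38) or sh812 replicate 2 (-0.49). The abundant glutamine carriers SLC38A2 and SLC38A1 were not called, at 793 and 802 CPM in shNC against 727 and 748 CPM in sh812 for the first, and 503 and 473 against 481 and 486 CPM for the second. All 6 SLC38 members lay below 0 in the fit with TMM scaling, with a median of -0.12. SLC38A1 was at -0.013 there and above 0 with the length trend removed (0.0753) and without shNC replicate 1 (0.0320).

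Carriers of sugars, monocarboxylates and lipids changed gene by gene. SLC16A9, a monocarboxylate carrier relative linked to carnitine, showed the largest decrease of all members, with 32.5 and 28.4 CPM in shNC and 19.9 and 16.8 CPM in sh812 (log2 difference -0.73, SE 0.11, edgeR adjusted p 6.12e-05). It was called in each alternative tried. The lactate carriers SLC16A1 (0.10) and SLC16A3 (0.043) were not called. SLC16A3 had 471 and 530 CPM in shNC and 492 and 539 CPM in sh812, so its groups overlap. SLC2A10 (GLUT10), a facilitative sugar carrier, had 11.9 and 10.8 CPM in shNC and 6.50 and 8.58 CPM in sh812 (log2 difference -0.59, SE 0.15, edgeR adjusted p 0.0114). SLC37A4, which passes glucose 6-phosphate into the endoplasmic reticulum, had 14.8 and 16.5 CPM in shNC and 20.7 and 19.7 CPM in sh812 (log2 difference 0.37, SE 0.11, edgeR adjusted p 0.0331). SLC27A5, a fatty acid transport protein that also activates bile acids, rose from 12.7 and 15.3 to 17.5 and 20.5 CPM (log2 difference 0.44, SE 0.12, edgeR adjusted p 0.0209). DESeq2 called none of SLC2A10, SLC37A4 and SLC27A5, and SLC37A4 also lost its call with library size alone. Each of these genes lost its call in some fit that left out 1 library, and SLC37A4 in most of them. The value of SLC37A4 ran from 0.29 to 0.45 over the alternatives.

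Of the remaining groups, SLC35A5, a Golgi protein of the nucleotide sugar carrier family, had 46.5 and 42.5 CPM in shNC and 33.4 and 35.4 CPM in sh812 (log2 difference -0.37, SE 0.08, edgeR adjusted p 0.00563). SLC22A23, an organic ion carrier relative without an established substrate, had 15.5 and 14.1 CPM in shNC and 10.1 and 11.04 CPM in sh812 (log2 difference -0.49, SE 0.13, edgeR adjusted p 0.013), and DESeq2 did not call it. None of the 6 peptide, vesicular and endomembrane carriers was called, and SLC66A2 had the smallest p there (0.21, adjusted p = 0.14 in edgeR). The scaffold genes SLC9A3R2 and SLC9A3R1 had values of 0.16 and -0.18 (adjusted p = 0.0763 and 0.0786 in edgeR).

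Transcript length moved with the direction of change. The principal transcripts of the 10 members called higher had a median length of 2490 bases, and those of the 17 called lower one of 4389 bases. Of the 51 members with the shortest transcripts, 6 were called higher and 1 lower, and of the 51 with the longest, 2 were called higher and 9 lower. Across the 153 members the Spearman correlation of the difference between groups with length was -0.34, and that between shNC replicate 2 and shNC replicate 1 was -0.36. The corresponding value between the sh812 replicates was -0.09. Members share their libraries and are not independent, so these are descriptions. The inorganic ion and pH carriers have long transcripts (median 4620.5 bases) and the mitochondrial carriers short ones (median 2529 bases). With the length trend removed 9 members were called higher and 16 lower, and 21 of the 27 calls stood in the same direction. The 6 that were lost are SLC12A2, SLC12A4, SLC12A7, SLC4A7, SLC1A4 and SLC25A3.

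**Figure D4:**
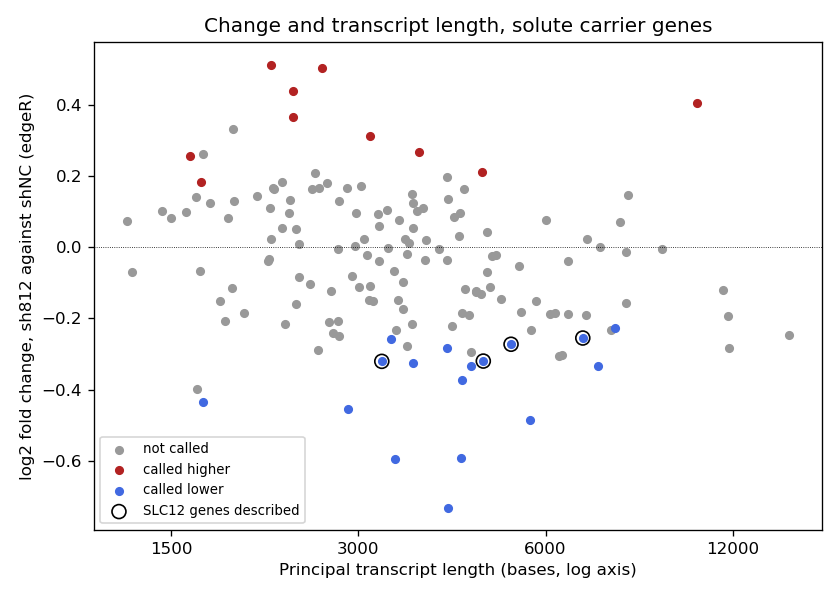
Log2 fold change of the 153 members, sh812 against shNC, by length of the principal transcript in bases on a log axis. Red points were called higher, blue lower and grey not called, and rings mark SLC12A2, SLC12A4, SLC12A7 and SLC12A9, which lie between -0.32 and -0.26 at lengths from 3273 to 6885 bases.

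The sequence GGACT, the most common core of METTL3-dependent methylation sites, was counted in the same transcripts. Members called lower had a median of 3 matches and those called higher a median of 4. Per kilobase the medians were 0.82 and 1.33, against 1.01 in members not called and 0.92 in protein-coding genes of like level. SLC44A1 had 11 matches and SLC43A3 had 0, and both rose. A match says nothing about methylation, which was not measured here.

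Carriers with other names and carrier partners were read from lists of 51 and 24 genes. Of 44 carriers under other names that were tested, 2 were called higher and 3 lower, and of 22 partners and regulators, 2 were called higher and 5 lower. These are 11.4% and 31.8% called, against 10.8% of all genes tested. Among protein-coding genes with a mean of at least 5 CPM, a limit that some genes of these lists lie under, 15.5% were called. SLCO4A1, an organic anion carrier, rose from 485 and 515 to 589 and 669 CPM (log2 difference 0.33, SE 0.06, edgeR adjusted p 0.00102). UCP2, a mitochondrial carrier known as an uncoupling protein, rose from 7.54 and 9.90 to 13.6 and 13.4 CPM (0.63, edgeR adjusted p 0.00464). The magnesium carrier NIPA1 (-0.39), the mitochondrial sideroflexin SFXN5 (-0.63) and the lysosomal protein SIDT2 (-0.36) were lower, with adjusted p-values of 0.000307, 0.00384 and 0.0311 in edgeR. Both beta subunits of the sodium pump that were called, ATP1B1 (0.23) and ATP1B3 (0.24), rose (adjusted p = 0.0178 and 0.0224 in edgeR), and both lost the call with library size alone. ATP1B1 lay at 0.15 without sh812 replicate 2 and ATP1B3 at 0.15 without shNC replicate 1. SGK1, a kinase that promotes sodium transport, fell from 29.3 and 32.1 to 20.2 and 23.4 CPM (-0.49, edgeR adjusted p 0.00232). The other lower genes were WNK1, the glucose uptake regulator ARRDC4 (-0.57), the amino acid sensor SESN2 (-0.40) and OSTM1 (-0.33), the partner of a lysosomal chloride exchanger. SIDT2 lay at -0.21 without shNC replicate 2, and OSTM1 at -0.50 and -0.18 without sh812 replicate 1 and replicate 2. Over both lists 12 genes were called, against 6 without sh812 replicate 1 and 5 without sh812 replicate 2.

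At the level limit, SLC35A1 (5.07 CPM), SLC7A6OS (5.503 CPM) and SLC46A1 (6.51 CPM) lay just inside, as means of CPM over the library totals. SLC45A1 (4.70 CPM), SLC24A1 (4.60 CPM) and SLC22A17 (4.36 CPM) lay just outside. Limits of 2 and 10 CPM gave 10 members called higher in both cases, and 19 and 15 called lower.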

How the data were processed

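Poly(A) RNA of 4 PC3 libraries was sequenced as paired reads from a dUTP library, per the labels' protocols. The deposited values are whole-number counts for each gene that carry no normalization by the authors. The submitters' processing notes name fastp, STAR 2.7.1a, featureCounts, DESeq2 and hg38, with no role or order. The annotation release, the strand setting and the counted item (reads or pairs) are not given in the sources used here, so overlapping genes cannot be told apart (exons of other genes overlap 6 of the 10 members called higher and 7 of the 17 called lower in GENCODE 29).

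All libraries entered 1 edgeR 4.0.16 model (R 4.3.3) of the counts, with filterByExpr, TMM, glmQLFit and glmQLFTest and no covariate. SE was derived from the F statistic, and CPM beside a test is scaled to the TMM library size. Replicates differed by more than sampling noise (chi-square per gene 8.43 in shNC and 4.51 in sh812), so each library counted once. Members were matched by Ensembl identifier to GENCODE 29, whose principal transcript gave the length. To remove the length trend, a lowess fit (span 0.3) in each library entered as offset. Leaving out a library leaves 1 residual degree of freedom, and the lone library is assumed to vary like the other group. The alternatives also used limma 3.58.1 and DESeq2 1.42.0. The methods were tested on simulated data.

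The members and lists were chosen with earlier results of these data known. Named are METTL3, each called member, the 8 members with the highest mean CPM, the 3 on either side of the level limit, the smallest p of each functional group and up to 6 called genes per direction of each of the 2 related lists. Any other gene was named after its values were seen. A few genes under this rule are not reported here. Functional groups follow the SLC family number, and the promoter motifs are common elements.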

Additional observations from a re-analysis of the deposited data

How the results depend on the processing

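The 13 alternatives to the edgeR fit and the 2 other level limits were planned. The log2 fold changes of METTL3 and of the 27 called members kept their sign in each alternative. Of the 27 calls, 14 stood in each of the 9 alternatives that used all 4 libraries, and 3 (SLC16A9, SLC39A4 and SLC44A1) also stood with each library left out. DESeq2 gave 8 members higher and 9 lower and 5 lower inorganic ion carriers, and the cause was not tested. With library size alone 28 members were called lower and the members' median was -0.0799, while the median of all genes moved to -0.05. With the length trend removed 5 inorganic ion carriers were called. Leaving out 1 library gave 3 to 21 members called higher and 3 to 18 lower, a median from -0.0424 to -0.0084, 0 to 7 inorganic ion carriers called lower, 0 to 7 mitochondrial carriers called higher and 5 to 16 related genes called. The highest count of rising members came without shNC replicate 2 and the lowest without sh812 replicate 2. Calls over all genes likewise rose without shNC replicate 2, and they fell with either sh812 replicate left out. Among the named members that were not called, SLC16A3 and SLC38A1 changed sign. SLC16A3 was at -0.0005 with library size alone, -0.0395 without shNC replicate 1 -0.0242 without sh812 replicate 2 and 0.1366 without shNC replicate 2. SLC38A1 was at 0.0753 with the length trend removed 0.0320 without shNC replicate 1 and -0.0514 without shNC replicate 2.

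Replicate numbers 1 and 2 recur in each group, and no label ties a number to a common day. Deviations of same-numbered libraries had a correlation of 0.0238 across genes. As each group gives a single pair of libraries, this value cannot tell whether same-numbered libraries shared a day or a preparation. With the replicate block 10 members were called higher and 19 lower, the median was -0.0367 and METTL3 was at -2.42. Depth, at 31450648 counts or more per library, and 2 libraries per group set what could be called.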

Other observations

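Of the 186 genes of the same name pattern below the level limit, 128 did not pass the low-count filter, 55 were tested and not called, 3 were called lower and 0 higher. That is 5.17% of the 58 tested, against 10.8% of all genes tested. The 3 were SLC4A4, a sodium bicarbonate cotransporter, SLC22A17, a lipocalin receptor, and SLC44A3, a relative of the choline carriers. SLC4A4 had 5.22 and 4.43 CPM in shNC and 2.73 and 3.05 CPM in sh812 (-0.74, edgeR adjusted p 0.0241). SLC22A17 had 5.27 and 5.28 CPM in shNC and 3.59 and 3.24 CPM in sh812 (-0.63, adjusted p = 0.0383 in edgeR). SLC44A3 had 1.71 and 1.96 CPM in shNC and 0.798 and 0.838 CPM in sh812 (-1.16, adjusted p = 0.0481 in edgeR).

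The SLC genes with letters other than A numbered 31, of which 25 belong to the SLC35 family. Of these 9 were not tested, 21 were not called and 1 was called, SLC35E3, at 31.3 and 28.6 CPM in shNC and 38.2 and 37.1 CPM in sh812 (0.33, adjusted p = 0.0166 in edgeR). That is 4.55% of the 22 tested, against 10.8% of all genes tested and 15.5% of protein-coding genes with a mean of at least 5 CPM.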
